A study of Homo sapiens with 4 samples.

Results

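The intermediate filament genes described here are VIM, NES, GFAP, INA, NEFL, NEFM, KRT7, KRT8, KRT17 and KRT18, 10 of the 19314 genes listed for human U87 glioma cells. They were taken from the expression table by gene symbol, and the set was chosen by its levels in the PTPRN knockdown libraries against the control libraries. Their levels and differences are therefore given as a description without a test. Of the 10 genes, 9 had an expression value and INA had none in any library.

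The study knocked down PTPRN, a receptor-type protein tyrosine phosphatase of neuroendocrine secretory vesicles, and asked how the U87 transcriptome changed. The 4 libraries are 2 labelled PTP2, with the genotype PTPRN knockdown, and 2 labelled SCR, the control for that knockdown. The knockdown was made with short-hairpin RNA in the pLKO.1 vector, and the control vector carried a sequence that matches no known human coding gene. The paper lists 2 hairpins against PTPRN, and which of them the label PTP2 stands for is not given in the sources used here. With a single knockdown label, an effect of the loss of PTPRN and another effect of the construct cannot be told apart. The cell line is given as U87 for every library, but hCMEC/D3, an endothelial line from brain, stands in the culture text of the same labels, with a DMEM/F12 medium with B27, insulin, EGF and bFGF. The labels do not say whether the replicates were separate cultures, so p-values measure the spread between these libraries, which may be technical.

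PTPRN itself had an FPKM (fragments per kilobase of transcript, scaled to the mapped fragments of the library) of 12.1 and 11.7 in the PTP2 libraries and of 84.8 and 85.0 in the SCR libraries. About 18300000 reads were estimated for each PTP2 library, and 19800000 and 18300000 for the SCR libraries. Of the 3 genes of the chromosome 9 deletion known for U87, MTAP was at 0.19 to 0.34, CDKN2A was at 0 in 3 libraries and at 0.05 in PTP2 replicate 1, and CDKN2B had no value. Among 10 endothelial markers the highest FPKM was 2.50 (PECAM1), and CDH5 and CLDN5, which define endothelium, were at 0.03 or below. VWF, of the same list, was at 0.06 and 0.05 in the PTP2 libraries and at 0.98 and 0.93 in the SCR libraries. In a bulk sample, fewer cells of a type and less RNA per cell cannot be told apart.

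Intermediate filaments are the rope-like part of the cytoskeleton beside actin filaments and microtubules. Their subunits share a central coiled-coil rod and are named by type. Type I and type II keratins pair with each other in epithelial cells. Vimentin (VIM) and glial fibrillary acidic protein (GFAP) are type III proteins of mesenchymal cells and astrocytes, and nestin (NES), α-internexin (INA) and the neurofilament chains (NEFL, NEFM) are type IV proteins of neural precursors and neurons. Nuclear lamins belong to the same superfamily. In glioma, VIM, NES and GFAP are in common use as markers.

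VIM was by far the most abundant of these genes and was higher in the PTP2 libraries, while the neural precursor gene NES and the 4 keratins were lower. The FPKM of VIM (Gene ID 7431) was 4766 and 4565 with knockdown and 1998 and 1918 in the control libraries. The groups lie far apart against a small spread within each. The mean was 4665 ± 143 (SD, n = 2) with knockdown and 1958 ± 56.3 (SD, n = 2) in the control, a ratio of 2.38 and a difference of 1.25 on the log2(FPKM + 1) scale. By FPKM, VIM ranked 3 and 4 among all genes in the PTP2 libraries and 13 and 14 in the SCR libraries. It took 1.07% and 1.04% of the summed FPKM of all genes with knockdown, against 0.470% and 0.457% in the control. The difference was between 1.21 and 1.28 under the 11 alternative settings, which include leaving out each library.

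NES, whose product assembles together with vimentin in dividing neural precursors, went the other way. The FPKM of NES (Gene ID 10763) was 3.12 and 3.39 with knockdown and 12.96 and 14.24 in the control libraries. Both control libraries were above both knockdown libraries. The mean was 3.25 ± 0.191 (SD, n = 2) with knockdown and 13.6 ± 0.905 (SD, n = 2) in the control, 4.18 times as high in the control, and the difference on the log2(FPKM + 1) scale was -1.78. About 315 and 342 reads lie behind the PTP2 values and 1414 and 1436 behind the SCR values. The FPKM ratio of VIM to NES was 1528 and 1346 in the PTP2 libraries, and 154 and 135 in the SCR libraries.

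The promoters of both genes are shown because the transcripts moved in opposite directions. RefSeq windows (GRCh38.p14) of the 250 bases before the annotated start were matched for 4 of the 10 genes, VIM, NES, INA and KRT8. VIM lies at chr10:17228259-17237593 on the plus strand and NES at chr1:156668763-156677397 on the minus strand. The windows printed are chr10:17227991-17228240 for VIM and chr1:156677408-156677657 for NES. Capitals mark the GC box, searched as GGGCGG on both strands.
VIM promoter: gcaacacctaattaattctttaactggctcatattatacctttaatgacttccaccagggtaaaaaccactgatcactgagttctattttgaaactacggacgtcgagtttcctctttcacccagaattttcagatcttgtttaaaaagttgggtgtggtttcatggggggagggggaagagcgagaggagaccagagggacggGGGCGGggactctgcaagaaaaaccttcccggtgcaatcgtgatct
NES promoter: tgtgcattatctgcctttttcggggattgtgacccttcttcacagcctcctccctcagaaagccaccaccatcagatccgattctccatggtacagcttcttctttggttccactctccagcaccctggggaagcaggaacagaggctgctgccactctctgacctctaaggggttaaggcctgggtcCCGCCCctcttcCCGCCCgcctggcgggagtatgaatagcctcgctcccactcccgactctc

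Both windows hold the GC box, 1 match for VIM and 2 for NES, and 42.6% of the 35116 promoter windows of the same length hold it too. Neither window held the TATA box letters TATAAA (10.7% of all windows), CCAAT (32.0%) or the AP-1 letters TGANTCA (6.57%). The GC content was 46.0% for VIM and 58.0% for NES, and the median over all windows was 58.0%.

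The simple epithelial keratins were low in this glioma line and lower still with knockdown. KRT8 and KRT18, the type II and type I partners of the simple epithelial filament, lie next to each other on chromosome 12. KRT8 had an FPKM of 1.97 and 1.99 in the PTP2 libraries and of 6.34 and 5.98 in the SCR libraries. KRT18 had an FPKM of 0.48 and 0.66 in the PTP2 libraries and of 2.97 and 3.09 in the SCR libraries. For both partners the groups did not overlap. The control mean was 3.11 times that of the knockdown for KRT8 and 5.32 times for KRT18, and the differences on the log2(FPKM + 1) scale were -1.26 and -1.36. KRT18 rests on about 12 and 17 reads in the PTP2 libraries and on 83 and 80 in the SCR libraries.

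The FPKM ratio of KRT8 to KRT18 was 4.10 and 3.02 with knockdown, and 2.13 and 1.94 in the control. Reads of these partners are hard to assign. In the deposited coordinates KRT8 (chr12:52897187-52949866, minus strand) and KRT18 (chr12:52948871-52952901, plus strand) overlap by 996 bases, and whether reads were counted by strand is not given in the sources used here. The GENCODE 29 annotation also lists 50 pseudogenes named for KRT8 and 68 named for KRT18, so both levels are uncertain. In the same annotation, antisense genes on the opposite strand overlap KRT7 by 2401 bases, NEFM by 957, NEFL by 249, and VIM by 1727 and 1509. If reads were not counted by strand, the levels of those genes may include antisense reads.

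KRT7, a type II keratin of ducts and glands, had an FPKM of 0.98 and 0.88 in the PTP2 libraries and of 1.79 and 1.74 in the SCR libraries. Its groups did not overlap, and the control mean was 1.90 times that of the knockdown. KRT17, a type I keratin of basal and stressed epithelium, was listed at 0 in both PTP2 libraries and at 0.74 and 0.46 in the SCR libraries. About 22 and 13 reads lie behind the SCR values of KRT17, and 1 read in a PTP2 library would have given an FPKM of 0.0358. KRT17 could enter the table of tested genes only through the control libraries, and GENCODE 29 lists 8 pseudogenes named for it.

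GFAP, the intermediate filament of mature astrocytes, was low in all libraries. GFAP had an FPKM of 0.22 and 0.11 in the PTP2 libraries and of 0.55 and 0.45 in the SCR libraries, from about 12 and 6 reads against 33 and 25. The groups did not overlap and the control mean was 3.03 times that of the knockdown, a difference of -0.37 on the log2(FPKM + 1) scale.

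The neurofilament genes were low. NEFM, the medium chain, had an FPKM of 0.62 and 0.80 in the PTP2 libraries and of 0.56 and 0.40 in the SCR libraries. The means were 0.710 ± 0.127 and 0.480 ± 0.113 (SD, n = 2 each), with the nearest libraries of the groups at 0.62 and 0.56, and about 24 to 47 reads lie behind each value. NEFL, the light chain, was at 0.01 in both PTP2 libraries and at 0 in both SCR libraries, which is about 1 read against none, and no fold is given. NEFL could enter the table of tested genes only through the PTP2 libraries. INA was listed without a value in all 4 libraries.

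In order of the control mean the genes ran from VIM through NES, KRT8, KRT18, KRT7, KRT17, GFAP and NEFM to NEFL. KRT17, GFAP and NEFM are neighbours in that order with overlapping control values, from 0.40 to 0.74, and cannot be ranked. With knockdown the order was VIM, NES, KRT8, KRT7, NEFM, KRT18, GFAP, NEFL and KRT17. There NEFM and KRT18 overlapped, with values from 0.48 to 0.80. NEFL, at 0.01 from about 1 read, and KRT17, at 0, cannot be ranked against each other either.

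Of the 9 genes with a value, 1 (VIM) was higher and 3 (NES, KRT8 and KRT18) were lower by a fold change of at least 2 with an adjusted p of at most 0.001 in limma, where 2.63% of all 16595 genes were higher and 4.06% lower, 6.69% in all. At an adjusted p under 0.05 with no minimum fold it was 1 higher and 6 lower, where 57.9% of all genes passed, 30.8% higher and 27.1% lower. The groups did not overlap in any of the 9, of which NEFL and KRT17 were above 0 in only 1 group each. Of the 9, 3 were higher and 6 lower with knockdown, and the groups did not overlap in 75.6% of all genes. These calls come from the values that chose the genes, so nothing is read from them. The median difference of the 9 genes was -0.52 on the log2(FPKM + 1) scale, and that of all genes tested was 0.01.

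**Figure D1:**
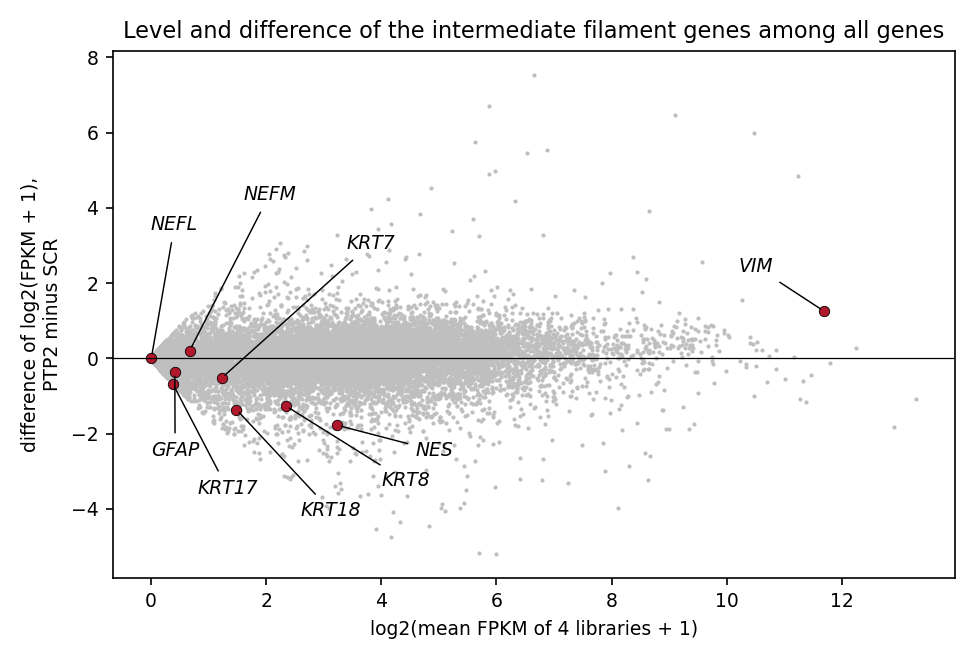
Difference of log2(FPKM + 1), PTP2 minus SCR (vertical axis), against the level of each gene, log2 of the mean FPKM of the 4 libraries plus 1 (horizontal axis). Grey points are all 16595 genes tested and red points are the 9 intermediate filament genes with a value. VIM stands at the high end of the level axis above 0, and NES and the keratins lie at low levels below 0.

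The rest of the superfamily was examined with the same fit, limma on log2(FPKM + 1) with p-values adjusted over all 16595 genes. Of 60 other intermediate filament genes (keratins, DES, PRPH, NEFH, SYNM, lamins and lens filaments), 43 had a value and 13 reached a mean FPKM of 1 in either group. At an adjusted p under 0.05, 3 were higher and 9 lower with knockdown, and 31 did not pass. That is 27.9% of the 43, below the 57.9% of all genes, and many of these genes were near 0. Fold change and adjusted p of at most 0.001 together were met by 3 genes, 6.98% of the 43 against 6.69% of all genes, and the 3 were KRT34, KRT33B and KRT222. The median difference of the 43 genes was -0.03 on the log2(FPKM + 1) scale, against 0.01 for all genes.

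KRT34 and KRT33B, type I keratins of hair, were lower together. KRT34 had an FPKM of 5.0 and 5.03 in the PTP2 libraries and of 21.21 and 21.04 in the SCR libraries. It fell by 1.88 on the log2(FPKM + 1) scale (standard error 0.03, limma adjusted p = 1.58e-04), and the control mean was 4.21 times that of the knockdown. KRT34 was thus more abundant in the control than any of the 4 keratins named at the outset.

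KRT33B had an FPKM of 0.54 and 0.71 in the PTP2 libraries and of 3.37 and 3.06 in the SCR libraries. It fell by 1.38 (standard error 0.07, limma adjusted p = 7.22e-04). Its paralog KRT33A was at 0.05 or below in every library, and reads of the pair were not separated further here. KRT222 had an FPKM of 0.36 in both PTP2 libraries and of 2.65 and 2.25 in the SCR libraries, and fell by 1.34 (limma adjusted p = 6.57e-04). A gene annotated as protein-coding, AC073508.2, overlaps KRT222 on the same strand, so its level is uncertain.

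KRT33B (chr17:41363494-41369800) and KRT34 (chr17:41377650-41382403) lie 7849 bases apart on the minus strand in GENCODE 29 (GRCh38). The deposited table places KRT33B on an alternate contig of chromosome 17. Their promoters are printed because these neighbours moved together. The windows are chr17:41369814-41370063 for KRT33B and chr17:41382307-41382556 for KRT34 (RefSeq, GRCh38.p14, minus strand), and capitals mark TATAAA and CCAAT.
KRT33B promoter: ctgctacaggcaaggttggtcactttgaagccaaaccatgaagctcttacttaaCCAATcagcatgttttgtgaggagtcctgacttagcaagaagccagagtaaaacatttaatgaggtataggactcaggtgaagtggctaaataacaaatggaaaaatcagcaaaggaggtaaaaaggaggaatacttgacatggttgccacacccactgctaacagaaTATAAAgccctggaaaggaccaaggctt
KRT34 promoter: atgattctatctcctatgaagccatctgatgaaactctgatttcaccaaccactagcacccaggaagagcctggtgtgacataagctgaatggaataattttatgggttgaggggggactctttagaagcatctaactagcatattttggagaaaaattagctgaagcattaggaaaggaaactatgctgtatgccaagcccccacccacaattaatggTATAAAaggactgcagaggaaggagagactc

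Each window holds 1 match to TATAAA, which begins 28 bases before the RefSeq start of KRT33B and 31 bases before that of KRT34. The 2 annotations place the start of KRT34 differently. In GENCODE the gene reaches base 41382403, inside the RefSeq window that begins at 41382307. By the GENCODE coordinates the KRT34 match lies within the gene and not before it. Of all promoter windows, 10.7% hold these letters on either strand. Neither window holds GGGCGG, and the GC content was 42.4% in both.

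Along the keratin cluster of chromosome 17, which spans bases 40654665 to 41624842, 28 of the keratin genes examined are annotated and 22 had a value. Of these 22, 8 were lower and 0 higher in both PTP2 libraries without overlap, where 35.8% of all genes were lower and 39.7% higher. At an adjusted p under 0.05 (limma), 4 were lower and 0 higher, where 27.1% and 30.8% of all genes were. The share that was lower without overlap is close to that of all genes. KRT31 (0 in both PTP2 libraries against 0.04 and 0.01) and KRT17 (0 against 0.74 and 0.46) could enter it only through the control libraries. The type II cluster on chromosome 12, from 52168996 to 52952901, holds 27 keratin genes here, KRT18 among them, and 17 had a value. Of those 17, 8 were lower and 3 higher without overlap, where 35.8% and 39.7% of all genes were. At an adjusted p under 0.05 (limma), 6 were lower and 2 higher, where 27.1% and 30.8% of all genes were. The counts without overlap include 3 genes above 0 in only 1 group. KRT5 (0.02 in both SCR libraries) and KRT83 (0.06 and 0.03) were at 0 in the PTP2 libraries. KRT4 was at 0.05 in both PTP2 libraries and at 0 in the SCR libraries. These counts include KRT7, KRT8, KRT17 and KRT18, whose values were known when they were chosen.

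The keratins that rose were KRT79 and KRT78. KRT79, a type II keratin of the hair follicle and sebaceous duct, had an FPKM of 8.40 and 8.16 in the PTP2 libraries and of 4.48 in both SCR libraries. It rose by 0.76 on the log2(FPKM + 1) scale (standard error 0.03, limma adjusted p = 4.77e-04). KRT78 had an FPKM of 1.83 and 1.64 in the PTP2 libraries and of 1.00 and 0.78 in the SCR libraries, and rose by 0.53 (limma adjusted p = 0.00758). Without PTP2 replicate 1, PTP2 replicate 2 or SCR replicate 2 its adjusted p was 0.103, 0.0814 or 0.067.

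KRT80, a type II keratin found near desmosomes, fell by 0.51 (limma adjusted p = 0.00164), from 8.07 and 8.01 in the SCR libraries to 5.52 and 5.17. KRT75, a type II keratin of the hair follicle, had 2.75 and 1.72 in the SCR libraries and 0.78 and 0.59 in the PTP2 libraries, and its difference was -0.92 (limma adjusted p = 0.0180). Its adjusted p was 0.144, 0.179 and 0.0712 without PTP2 replicate 1, PTP2 replicate 2 and SCR replicate 1. KRT10, the most abundant keratin of the set and a type I keratin of the upper epidermis, had 23.0 and 23.3 in the PTP2 libraries against 29.4 and 24.9, and did not pass (adjusted p = 0.116). KRT15 was at 1.04 and 1.02 against 1.31 and 1.05 (adjusted p = 0.303). Without SCR replicate 2, KRT10 and KRT15 had adjusted p-values of 0.0282 and 0.0412, and KRT10 had 0.0429 with the FPKM minimum.

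**Figure D2:**
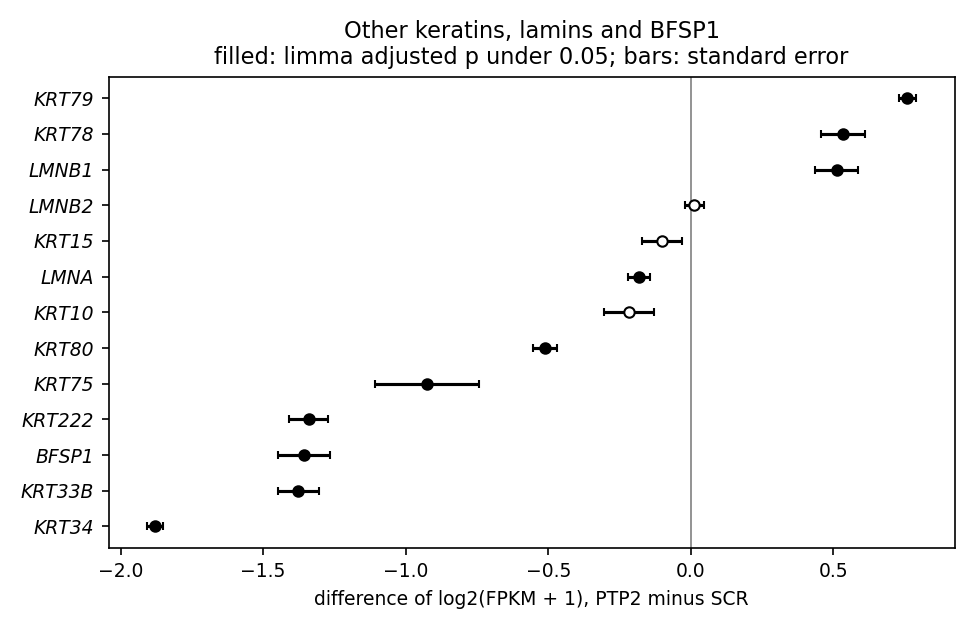
Difference of log2(FPKM + 1), PTP2 minus SCR (horizontal axis), with its standard error, for the 13 other intermediate filament genes whose mean reached an FPKM of 1 in either group. Filled points passed an adjusted p under 0.05 in limma and open points did not. KRT34 lies farthest to the left at -1.88 and KRT79 farthest to the right at 0.76.

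The nuclear lamins differed among themselves. LMNA, which encodes lamins A and C, had an FPKM of 282 and 286 in the PTP2 libraries and of 330 and 314 in the SCR libraries, a difference of -0.18 on the log2(FPKM + 1) scale (limma adjusted p = 0.0225). The call of LMNA was lost with a pseudocount of 0.1 (adjusted p = 0.0514), with the replicate block (0.0502), and without PTP2 replicate 1 (0.138), PTP2 replicate 2 (0.122) or SCR replicate 1 (0.0561). LMNB1 had 17.8 and 18.7 against 13.4 and 11.7, and rose by 0.51 (limma adjusted p = 0.00809). Its adjusted p was 0.0946, 0.112 and 0.0511 without PTP2 replicate 1, PTP2 replicate 2 and SCR replicate 2. LMNB2 was at 54.1 and 55.9 against 54.2 and 54.8 (difference 0.01, adjusted p = 0.785), and its difference was -0.04 with quantile normalization, -0.03 with median-ratio scaling and -0.01 without PTP2 replicate 2. BFSP1, the lens filament protein filensin, fell by 1.36 (limma adjusted p = 0.00115), from 3.33 and 3.89 in the control to 0.90 and 0.70. DES, the type III protein of muscle, was at 0.05 in both PTP2 libraries and at 0.81 and 0.91 in the SCR libraries, and fell by 0.82 (adjusted p = 6.14e-04).

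VIM therefore made up nearly the whole cytoplasmic intermediate filament transcript pool in both groups. Over the 65 cytoplasmic genes examined it took 98.9% and 98.8% of the summed FPKM in the PTP2 libraries, and 95.1% and 95.2% in the SCR libraries. The other 64 genes summed to 55.2 and 55.1 with knockdown and to 103 and 96.6 in the control. The sum of these other genes thus moved against VIM, but it includes NES and the rest of the genes chosen by these values. The other type I keratins, a list also written with earlier results of these data known, summed to a mean of 30.9 with knockdown and 56.1 in the control. That sum holds KRT34, at 5.0 and 5.03 with knockdown and at 21.21 and 21.04 in the control. Of the 21 genes of that list with a value, 18 did not pass an adjusted p under 0.05 (limma), and the median difference was -0.04 on the log2(FPKM + 1) scale. The other type II keratins summed to a mean of 16.3 with knockdown and 16.2 in the control. Of the 64 genes, 47 had a value, and 2 were higher and 13 lower at an adjusted p under 0.05 (limma). The other 32 did not pass.

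The 3 cytoskeletal filament systems are set side by side because FPKM is scaled per length. The summed FPKM of the cytoplasmic intermediate filament genes was 4720 ± 143 (SD, n = 2) with knockdown and 2057 ± 60.6 (SD, n = 2) in the control. That of 6 actin genes was 3360 ± 110 and 5127 ± 73.1, a ratio of 0.655. That of 13 tubulin genes was 4012 ± 60.5 and 4071 ± 50.3, a ratio of 0.986. The FPKM of VIM was 2.28 and 2.29 times that of ACTB in the PTP2 libraries, and 0.644 and 0.626 times in the SCR libraries. ACTB, the main cytoplasmic actin, was chosen for this ratio after its values were seen.

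**Figure D3:**
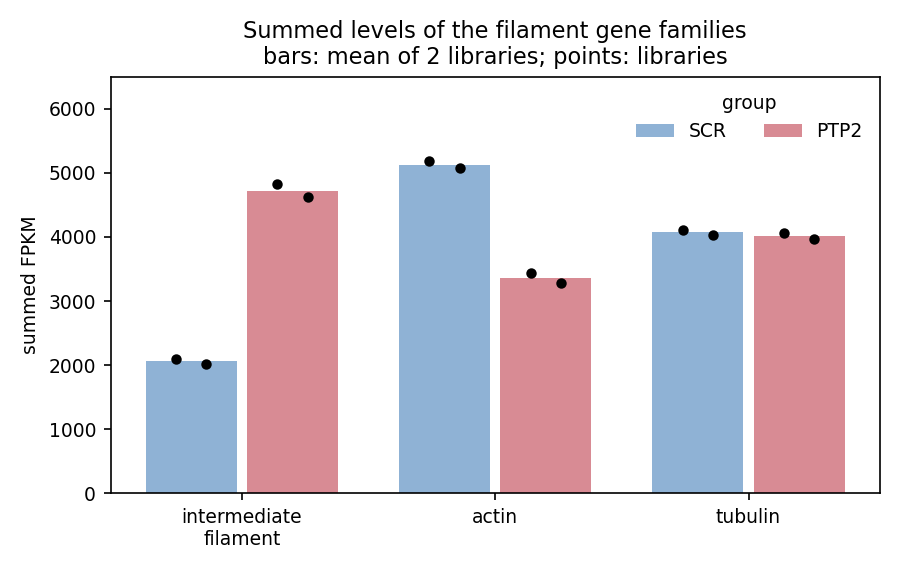
Summed FPKM (vertical axis, from 0) of 65 cytoplasmic intermediate filament genes, 6 actin genes and 13 tubulin genes. Bars are means of 2 libraries and points are the libraries (blue, SCR; red, PTP2). The intermediate filament sum is higher with knockdown, the actin sum is lower, and the tubulin sums lie close together.

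Among the actins and tubulins, all 19 of which had a value, 5 were higher and 8 lower at an adjusted p under 0.05 (limma), 68.4% against 57.9% of all genes. Of the 6 actins, 4 were lower and 0 higher. ACTA2, smooth muscle actin, fell by 0.81 (adjusted p = 7.64e-04), from 23.2 and 24.0 to 13.4 and 12.6. ACTG2 fell by 0.69 (adjusted p = 0.00113). Of the 13 tubulins, 5 were higher and 4 lower. TUBA1A, an α-tubulin of neurons and growing cells, fell by 1.46 (limma adjusted p = 2.42e-04), from 366 and 368 in the control to 131 and 135, and was the only gene of the partner lists past the stricter thresholds. TUBB2A fell by 0.82 (adjusted p = 0.00105).

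Of 12 plakins and other linkers, which tie intermediate filaments to membranes, the nucleus and the other filaments, 7 were lower and 0 higher at an adjusted p under 0.05 (limma), and 5 did not pass. The 58.3% called is close to the 57.9% of all genes, a share that counts both directions. All of the called linkers were lower, where 27.1% of all genes were lower and 30.8% higher. PLEC (plectin) had an FPKM of 37.9 and 39.6 in the PTP2 libraries and of 57.5 and 56.9 in the SCR libraries, and fell by 0.55 (adjusted p = 0.00110). MACF1, a linker of actin and microtubules, fell by 0.58 (adjusted p = 0.00169). DST (dystonin) had a difference of -0.41 (adjusted p = 0.00929), with an adjusted p from 0.0616 (without SCR replicate 1) to 0.101 (without PTP2 replicate 1) when one library was left out, 0.0759 without PTP2 replicate 2 and 0.0854 without SCR replicate 2. SYNE1 (nesprin-1) had a difference of -0.21 (adjusted p = 0.0109), and its adjusted p was 0.0863 and 0.0791 without PTP2 replicate 1 and 2. The summed FPKM of the list was 102 ± 3.02 (SD, n = 2) with knockdown and 145 ± 3.79 (SD, n = 2) in the control.

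Desmosomes and hemidesmosomes anchor keratin filaments at the membrane. Of their 15 genes, 14 had a value, and 2 were higher and 3 lower at an adjusted p under 0.05 (limma), 35.7% against 57.9% of all genes. DSG2 (desmoglein 2) had 7.44 and 7.21 in the PTP2 libraries against 14.5 and 14.9, and fell by 0.91 (adjusted p = 4.12e-04). PKP3 (plakophilin 3) fell by 1.24 (adjusted p = 0.00129), from 3.70 and 3.01 to 0.84 and 0.83. PKP4 rose by 0.44 (adjusted p = 0.00664), with an adjusted p of 0.0988 and 0.088 without PTP2 replicate 1 and 2. The integrin gene ITGA6 did not pass (difference -0.27, adjusted p = 0.0645), and passed with the FPKM minimum (0.0179), with median-ratio scaling (0.0431) and without PTP2 replicate 2 (0.0415).

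Of 18 kinases, chaperones and turnover factors that act on intermediate filaments, 7 were higher and 6 lower at an adjusted p under 0.05 (limma), 72.2% against 57.9% of all genes. The mitotic kinases AURKB, PLK1 and CDK1, which phosphorylate vimentin at cell division, rose by 1.12, 0.90 and 0.75 (adjusted p = 0.00102, 6.55e-04 and 0.00112). AURKB had an FPKM of 39.9 and 36.2 in the PTP2 libraries and of 16.2 and 17.7 in the SCR libraries. PRKCA, protein kinase C alpha, fell by 0.78 (adjusted p = 5.27e-04), from 22.8 and 23.2 to 12.7 and 13.2.

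Several of the 10 genes are used as cell type markers, so the other markers of those types are given beside them. Of 10 astrocyte markers, 9 had a value, and 2 were higher and 4 lower at an adjusted p under 0.05 (limma), 66.7% against 57.9% of all genes. The list summed to 59.4 and 61.0 FPKM with knockdown and to 128 and 132 in the control. ALDOC, an aldolase of astrocytes, fell by 2.26 (adjusted p = 1.66e-04), and SOX9, a glial transcription factor, fell by 1.58 (adjusted p = 2.48e-04). GJA1 (connexin 43) fell by 0.95 (adjusted p = 6.93e-04). SLC1A3, a glutamate transporter of astrocytes, went the other way, with an FPKM of 10.23 and 9.76 in the PTP2 libraries against 5.81 and 5.99, and rose by 0.67 (adjusted p = 8.26e-04). FABP7 had a difference of 0.81 (adjusted p = 0.0145), and none of the fits with one library left out kept that call (adjusted p 0.0822 to 0.138, lowest without PTP2 replicate 2, highest without SCR replicate 1, 0.127 without PTP2 replicate 1 and 0.0908 without SCR replicate 2). The defining markers S100B and ALDH1L1 were at 0 in both PTP2 libraries and at 0.09 or below in the control, and AQP4 had no value. Whether these genes had a part in the values of GFAP and NES was not tested.

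Of 10 neural stem cell markers, 8 had a value, and 1 was higher and 1 lower at an adjusted p under 0.05 (limma), 25.0% against 57.9% of all genes. The list summed to 11.4 and 12.2 FPKM with knockdown and to 11.3 and 12.1 in the control, and most of that was PAX6, with 9.10 and 10.21 against 9.23 and 10.06. The marker that passed as lower was PROM1 (CD133), with an FPKM of 0.01 and 0.04 in the PTP2 libraries and of 0.22 and 0.25 in the SCR libraries, and it fell by 0.27 (adjusted p = 0.00545), in the same direction as NES. OLIG2 had 1.15 and 0.91 against 0.54 and 0.50 (difference 0.42, adjusted p = 0.0117), and its adjusted p was 0.129 and 0.144 without SCR replicate 1 and 2. FUT4 did not pass (adjusted p = 0.114). SOX2, which defines neural stem cells, was at 0.05 and 0.14 with knockdown and at 0.27 and 0.18 in the control, also lower in both PTP2 libraries, and did not pass (adjusted p = 0.109). Whether these genes had a part in the values of NES was not tested.

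Of 10 neuronal markers, 8 had a value, 2 were higher and 4 lower at an adjusted p under 0.05 (limma), 75.0% against 57.9% of all genes. SYP, the synaptic vesicle protein synaptophysin, had an FPKM of 11.1 and 10.1 in the PTP2 libraries and of 0.56 and 0.40 in the SCR libraries, and rose by 2.97 (adjusted p = 2.99e-04). SNAP25, also of the synaptic release machinery, fell by 1.22 (adjusted p = 6.59e-04), and SYT1 fell by 0.28 (adjusted p = 0.00375). GAP43, a growth cone protein, fell by 0.90 (adjusted p = 0.00165), with 0.0539 and 0.0524 without PTP2 replicate 1 and 2. RBFOX3 and DCX, which define neurons, were at 0.05 or below, and STMN2 and ELAVL4 had no value. The list summed to 710 and 680 FPKM with knockdown and to 580 and 573 in the control, most of it UCHL1.

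Epithelial markers were low throughout. Of 12, 11 had a value, and 1 was higher and 0 lower at an adjusted p under 0.05 (limma), 9.09% against 57.9% of all genes. The list summed to 4.72 and 4.44 FPKM with knockdown and to 3.48 and 2.57 in the control, and CLDN7 made up most of the sum with knockdown. The gene that passed was CLDN7 (claudin 7), at 2.64 and 2.45 against 1.32 and 0.83, with a difference of 0.78 (adjusted p = 0.0117) that was lost without PTP2 replicate 1 (0.145) or PTP2 replicate 2 (0.127). CDH1 (E-cadherin) was at 0.20 and 0.29 with knockdown and at 0.38 and 0.44 in the control (adjusted p = 0.0510), and EPCAM at 0.23 and 0.27 against 0.28 and 0.33 (adjusted p = 0.256). Both were lower in both PTP2 libraries, as KRT8 and KRT18 were, and neither passed. CLDN4 went the other way, at 1.11 and 0.86 with knockdown against 0.77 and 0.46, and did not pass (adjusted p = 0.119). Of the 11 genes, 2 were higher and 3 lower without overlap, where 39.7% of all genes were higher and 35.8% lower. The 3 include KRT5, which was at 0 in both PTP2 libraries and at 0.02 in both SCR libraries. KRT19 was at 0.12 and 0.08 against 0.32 and 0.12, and GRHL2 had no value. Whether these genes had a part in the values of KRT8 and KRT18 was not tested.

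Of the 10 endothelial markers, 3 were higher and 2 lower at an adjusted p under 0.05 (limma), 50.0% against 57.9% of all genes, and the list summed to 4.03 and 4.57 FPKM with knockdown and to 4.72 and 4.77 in the control. PECAM1 fell by 0.62 (adjusted p = 7.77e-04), from 2.39 and 2.50 to 1.21 and 1.26. VWF fell by 0.89 (adjusted p = 3.99e-04), from 0.98 and 0.93 to 0.06 and 0.05. ERG rose by 0.75 (adjusted p = 0.00343), with 0.68 and 0.94 in the PTP2 libraries against 0.07 in both SCR libraries. KDR rose by 0.47 (adjusted p = 0.00119), with 0.87 and 0.85 against 0.36 and 0.32. TEK had 0.97 and 1.08 against 0.45 and 0.60 (difference 0.41, adjusted p = 0.0102), with an adjusted p of 0.0923, 0.117 and 0.0722 without PTP2 replicate 1, PTP2 replicate 2 and SCR replicate 1.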

How the data were processed

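U87 RNA was sequenced as single-end reads of 50 bases on a BGISEQ-500, with 2 libraries a group. The FPKM values were made and deposited by the authors in 2 tables, rounded to 2 decimals, and 0 of the 66380 values compared differed. The submitters' processing notes list HISAT2 2.1.0 and hg19, whereas gene positions in the deposited table are on GRCh38. The counting program is not given in the sources used here. Columns of the authors' own comparisons (fold changes, p-values, q-values) and group means were not used. No counts were used. The depth was estimated from the FPKM that 1 read is worth in short single-transcript genes (under 1000 bases), as whole reads over the length less 49 bases. Member reads use the longest transcript and cover counting only.

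Genes above 0 in at least 1 library (16595) were fitted with limma 3.58.1 (R 4.3.3) on log2(FPKM + 1), group as the only term, 3.72 degrees of freedom, Benjamini-Hochberg adjustment. The pseudocount of 1 understates the change of low genes. The fit was tested on simulated data first. An exact permutation test of 2 against 2 cannot go below p = 0.333 (two-sided). Calls used a fold change of at least 2 with an adjusted p of at most 0.001, or an adjusted p under 0.05.

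Members and lists were chosen with earlier results of these data known. Named genes are the members, PTPRN, other intermediate filament genes whose mean reached an FPKM of 1 and, of each other list, up to 4 genes with the largest difference, a mean of at least 1 and no overlap. Other genes named in marker lists, and DES, ACTB and KRT33A, were chosen after their values were seen. The alternatives were a filter that asked for an FPKM of 1 in 2 libraries, a pseudocount of 0.1, quantile normalization, median-ratio scaling, a replicate block, an eBayes trend and leaving out each library. A pseudocount of 0.1 with a trend was added after seeing the data. Promoters are RefSeq's and gene overlaps are from GENCODE 29.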

Additional observations from a re-analysis of the deposited data

How the results depend on the processing

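Of the genes named by rule, LMNB2, which was not called, changed sign (0.01, against -0.04 with quantile normalization, -0.03 with median-ratio scaling and -0.01 without PTP2 replicate 2), and the others kept their direction under each alternative in which they were fitted. With a pseudocount of 0.1, the differences were -2.03 for NES, -1.59 for KRT8, -2.24 for KRT18, -0.86 for KRT7, -1.21 for GFAP and -2.78 for KRT17, which shows how far the pseudocount sets the size for low genes. The stricter count is fragile. Of the 1111 genes past a fold change of 2 and an adjusted p of 0.001, 0 remained with a pseudocount of 0.1, with the replicate block or with any library left out, and 1172 were called with a pseudocount of 0.1 and a trend. At those settings with 0, limma gave 10185, 10108 and 8700 to 8790 genes at an unadjusted p under 0.05. The 3 other intermediate filament genes, the 1 partner gene and the 4 marker genes past the stricter thresholds were 0 there too. The count of partner genes was 3 with the FPKM minimum, 2 with quantile normalization, 2 with the trend and 3 with the pseudocount of 0.1 and trend. At an adjusted p under 0.05 the 9603 genes became 6181 to 6332 with a library left out, the 12 other intermediate filament genes became 7 to 11, and the 20 marker genes became 13 with the FPKM minimum. Fewer residual degrees of freedom come with each library left out, and the lone library is assumed to vary like the other group. Labels give no link between equal replicate numbers, and the correlation of replicate differences between groups was 0.0635 over 11272 genes. With the replicate block, 9139 genes, 11 other intermediate filament genes, 38 partner genes and 22 marker genes passed 0.05, and 6 intermediate filament genes were lower in both PTP2 libraries (4 with the FPKM minimum, which drops GFAP and KRT17). A floor of 3 reads was set, not measured (FPKM 0.0298 for NES to 0.116 for KRT18 in PTP2 libraries). Values under it, such as those of NEFL, were taken as too few reads to give a level.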
